A study of Homo sapiens with 10 samples.

Results

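The carriers of glutamine, of other neutral amino acids and of cationic amino acids were followed in human pancreatic cancer cells that had lived through a block of cystine uptake. The set held 10 genes, listed by name with no cut-off on a measured value, of 20289 genes in the deposited table: SLC1A5, SLC1A4, SLC38A1, SLC38A2, SLC7A1, SLC7A2, SLC6A9, SLC43A1, SLC1A1 and SLC1A3. PANC-1 and CFPAC-1 are established lines of pancreatic ductal adenocarcinoma. RNA was sequenced from PANC-1 cells after 24 h with 1 µM imidazole ketone erastin (IKE, 4 libraries) or with 0.1% DMSO, the solvent control (2 libraries), and from CFPAC-1 cells after 24 h with 10 µM IKE (2 libraries) or with 0.1% DMSO (2 libraries). The series set out to find regulators of ferroptosis, the iron-dependent death by lipid peroxidation that follows loss of cystine and glutathione. No gene was edited in any group, the dose differed between the lines, and dead cells were removed before RNA was made, so a change can lie within cells or in which cells were left. In these bulk samples, fewer cells with a transcript and less of it per cell cannot be told apart.

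IKE blocks system xc-, the exchanger that imports cystine and exports glutamate. Cells that run short of amino acids activate the kinase GCN2, which raises translation of the transcription factor ATF4, and ATF4 in turn induces genes of amino acid uptake and synthesis, several carriers among them. The 10 genes differ in what they carry. SLC1A5 (ASCT2) and SLC1A4 (ASCT1) exchange small neutral amino acids across the membrane, SLC38A1 and SLC38A2 (SNAT1 and SNAT2) load glutamine and other neutral amino acids with sodium, SLC7A1 and SLC7A2 (CAT-1 and CAT-2) import arginine and lysine, SLC6A9 (GlyT1) imports glycine, SLC43A1 (LAT3) lets large neutral amino acids through along their gradient, and SLC1A1 and SLC1A3 (EAAT3 and EAAT1) take up glutamate.

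ATF4 can bind composite elements that share the core TGATGNAA, where N is any base, and this core was searched for on both strands in windows at annotated transcript starts. The windows are RefSeq's (GRCh38.p14) and run from 250 bases before a start to 50 after it. Windows of 9 of the 10 genes were used, 16 windows in all, and SLC7A2 is named only. Of these 9 genes 5 had a match (55.6%), or 5 of 16 windows (31.2%), where 4.46% of the 27305 genes and 3.62% of the 35116 windows in the whole table had one. The matched stretches are printed with the core in capitals, read along the gene's own strand, and with 11 bases on each side. In CFPAC-1 the genes that rose with IKE include 4 of the 5, and also SLC6A9 and SLC38A2, which had no match. SLC1A3 had a match and was called in neither line, and SLC38A1 was not called in PANC-1. The motif was chosen with earlier results of these data known, and a link between match and rise was not tested. ASNS, the asparagine synthetase gene whose promoter holds a well-studied element of this kind, is shown for comparison.
SLC1A5: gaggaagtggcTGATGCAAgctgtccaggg
SLC1A4: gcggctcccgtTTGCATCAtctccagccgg
SLC38A1: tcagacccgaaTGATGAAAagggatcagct
SLC7A1: gggcgcactgcTGATGAAAcctggcgccgg
SLC1A3: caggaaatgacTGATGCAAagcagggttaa
ASNS: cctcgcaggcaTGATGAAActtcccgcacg
The SLC1A5 stretch lies at chr19:46784893-46784922 (minus strand), the SLC1A4 stretch at chr2:64989381-64989410 (plus strand), the SLC38A1 stretch at chr12:46266502-46266531 (minus strand), the SLC7A1 stretch at chr13:29595663-29595692 (minus strand), the SLC1A3 stretch at chr5:36596357-36596386 (plus strand) and the ASNS stretch at chr7:97872458-97872487 (minus strand).

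The core of SLC7A1 and that of ASNS were the same 8 letters followed by the same base, and SLC38A1 held those 8 letters too. SLC1A5, SLC1A3 and, on the opposite strand, SLC1A4 held TGATGCAA. Counting from the first transcribed base as 1 and the base before it as -1, the core began at 8 in SLC7A1, at -4 in SLC38A1, at -7 in SLC1A4, at -97 in SLC1A5, at -220 in SLC1A3 and at -68 in ASNS. GENCODE 29 places the cores of SLC7A1, SLC1A5 and ASNS in an exon of some transcript of the same gene, and those of SLC1A4, SLC38A1 and SLC1A3 in none. The matched window was the most downstream of 3 in SLC1A5 and the more downstream of 2 in SLC1A4 and in SLC38A1. The most upstream of 3 windows held the match in SLC1A3, and the only window in SLC7A1. SLC38A2, SLC6A9, SLC43A1 and SLC1A1 had no match, which says only that these letters are not in these windows. Which start was in use in these cells is not known from gene-level values, and a match is no evidence of binding.

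**Figure D1:**
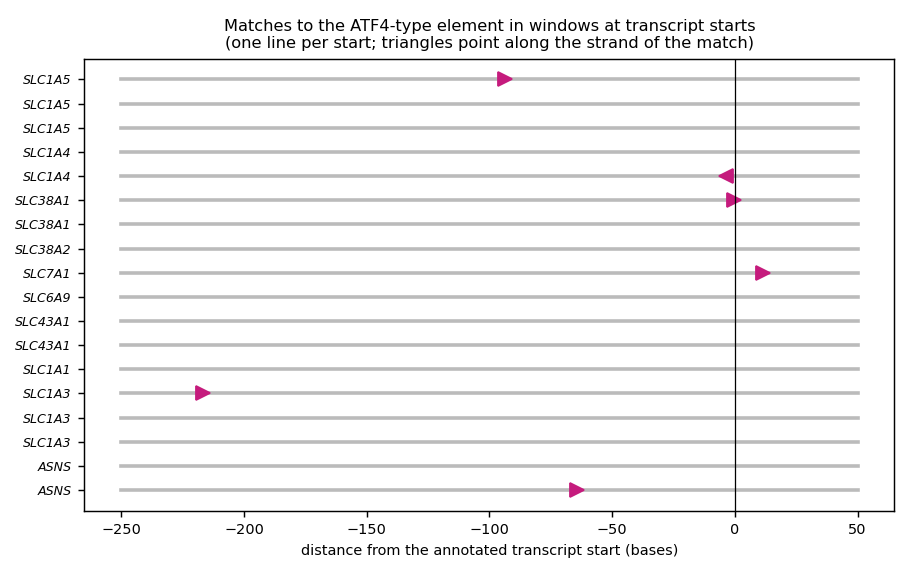
Windows at annotated transcript starts of 9 carrier genes and of ASNS, drawn by distance from the start in bases, with one grey line per window. Triangles mark matches to the core: of 16 carrier windows 5 held one, and those of SLC1A4, SLC38A1 and SLC7A1 lay within 10 bases of a start.

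SLC1A4 is shown at greater length because it had the largest rise with IKE among the carriers of PANC-1. The 200 bases at chr2:64989200-64989399 (GRCh38.p14, plus strand), which end with the core (capitals) at the first transcribed base, were these.
SLC1A4: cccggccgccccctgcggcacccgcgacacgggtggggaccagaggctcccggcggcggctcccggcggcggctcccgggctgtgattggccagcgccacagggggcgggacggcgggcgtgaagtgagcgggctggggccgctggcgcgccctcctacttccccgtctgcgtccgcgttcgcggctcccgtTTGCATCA

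Levels are in FPKM (fragment counts divided by the length of the transcript and by library size), a scale per length on which genes can be compared. Summed FPKM ran from 405937 to 472665 per library, between 11604 and 12248 genes reached 1 FPKM, and read depth is unknown because the table holds no counts, so counting error cannot be given. The share of FPKM in mRNAs of the mitochondrial genome ran from 2.65% to 5.27%, and PANC-1 IKE replicate 3 had the highest. The 6 markers of ductal epithelium fixed for this check were at 1 FPKM or more in every group, summing to 4861 to 5688 FPKM in PANC-1 with IKE, 5105 to 5651 FPKM in PANC-1 with DMSO, 5959 to 6050 FPKM in CFPAC-1 with IKE and 6505 to 6846 FPKM in CFPAC-1 with DMSO. The sums hide a difference between the lines. With DMSO, mean FPKM was lower in PANC-1 than in CFPAC-1 for KRT7 (4.97 against 296), EPCAM (9.5 against 157), CDH1 (14.1 against 92.1) and KRT19 (846 against 2221). KRT18 (1627 against 1331) and KRT8 (2877 against 2578) were higher in PANC-1. Of the 14 markers of leukocytes, endothelium, fibroblasts, acinar cells and islet cells, 2 exceeded 1 FPKM in PANC-1 and 3 in CFPAC-1, in at least 1 library. CD68, a lysosomal protein gene used for macrophages, and COL1A1 passed in both lines and PECAM1 in CFPAC-1, and the others were below 1 FPKM in every library. The endothelial list, which holds PECAM1, summed to 21.1 to 21.3 FPKM in CFPAC-1 with IKE and 18.5 to 20.8 FPKM with DMSO, and the part of these markers in the results was not tested. Replicates are labelled as bioreplicates, with no word on whether they were cultured apart. The p-values then rest on the spread among these samples, which may be technical. Changes are log2 fold changes of FPKM + 1, which understate those of genes with low values, and each p is from limma fitted to 13077 genes with at least 1 FPKM in 2 libraries, adjusted over all of them by the Benjamini-Hochberg method and called below 0.05.

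**Figure D2:**
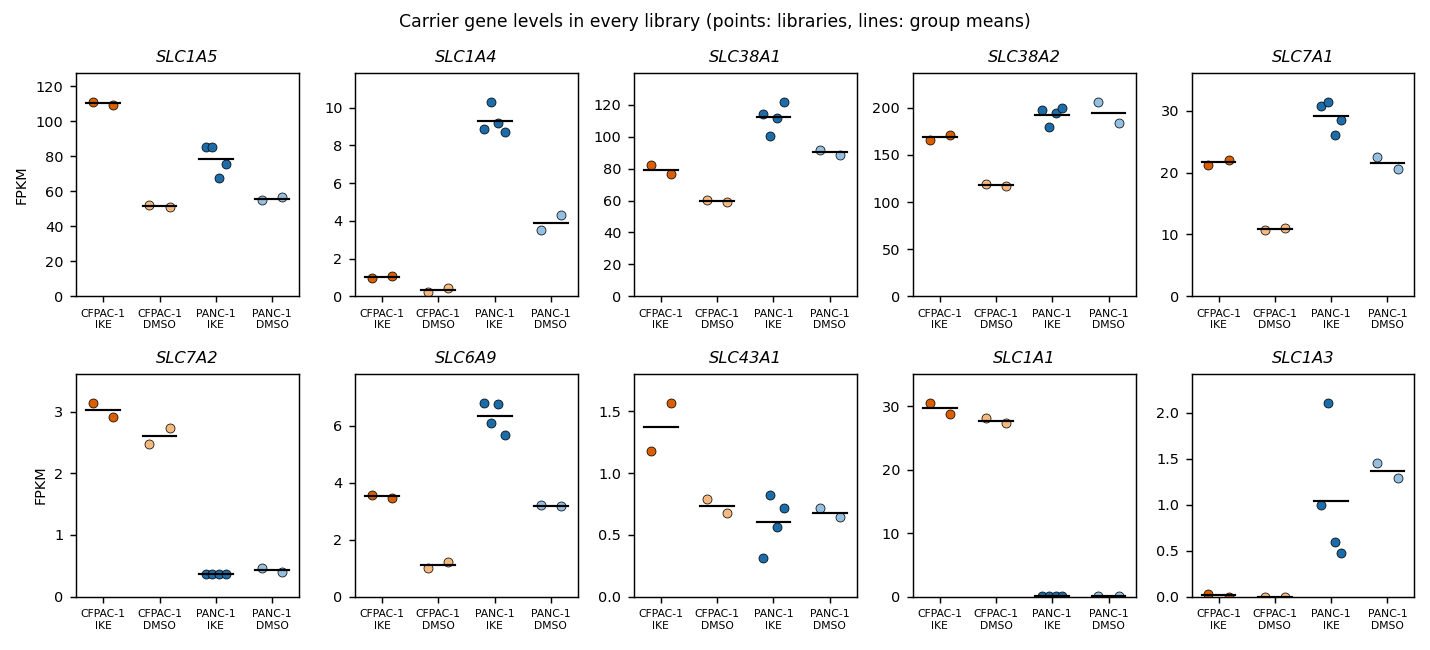
FPKM of each of the 10 carrier genes (vertical axes, each from 0) in every library of the 4 groups; points are libraries and lines group means. SLC1A5, SLC1A4, SLC38A1, SLC7A1 and SLC6A9 lie higher in every IKE library than in any DMSO library of the same line. SLC1A1, SLC7A2, SLC1A3, SLC1A4, SLC38A1 and SLC38A2 separate the lines in every library.

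CFPAC-1 cells that survived 10 µM IKE had more mRNA of the exchangers, the sodium-coupled carriers, a cationic carrier and the glycine carrier. SLC6A9, SLC1A5, SLC7A1, SLC1A4, SLC38A2 and SLC38A1 rose, 6 of the 10 genes, none fell and 4 were not called, where 0.864% of all 13077 genes tested rose and 0.459% fell (1.32% called in all). The median log2 fold change of the 10 was 0.48, against 0.00 for all genes tested. ATF4, whose own mRNA level was measured here and not its translation, was 230 ± 3.17 FPKM with IKE and 92.7 ± 1.79 FPKM with DMSO (mean ± SD, n = 2 each; log2 fold change 1.3, adjusted p = 2.98e-06, limma).

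Among the exchangers, SLC1A5 (ENSG00000105281, chromosome 19, 46774883 to 46788594, GRCh38) had 111 and 109 FPKM in CFPAC-1 with IKE, against 51.96 and 50.99 FPKM with DMSO. The replicates lay within 1.5 FPKM of each other while the groups stood far apart, with a log2 fold change of 1.08 (SE 0.10, adjusted p = 1.87e-04, limma). SLC1A5 shares exonic sequence with AC008622.2 on the other strand, so part of its value is uncertain if strand was not used in counting. SLC1A4 (ENSG00000115902, chromosome 2, 64988477 to 65023865) had 0.98 and 1.08 FPKM with IKE, against 0.20 and 0.45 FPKM with DMSO. Only 1 CFPAC-1 library reached 1 FPKM, so SLC1A4 entered the fit through its PANC-1 libraries. Its groups did not overlap but the level was near the limit of the table in both (log2 fold change 0.62, SE 0.13, adjusted p = 0.0416). That call was lost in 7 of the 10 fits that left out a library, namely each of the 4 CFPAC-1 libraries and PANC-1 IKE replicates 1, 3 and 4 (adjusted p from 0.0593 to 0.253). It was also lost with no low-value filter, with quantile normalization and with only part of the PANC-1 IKE libraries (adjusted p from 0.0568 to 0.0806). With a pseudocount of 0.1 in place of 1, the change of SLC1A4 was 1.47 on the log2 scale.

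The sodium-coupled carriers moved less in proportion, from higher levels. SLC38A2 (ENSG00000134294, chromosome 12, 46358189 to 46372867), known in other cells for its induction when amino acids run short, had 166 and 171 FPKM in CFPAC-1 with IKE, against 120 and 117 FPKM with DMSO. Every IKE library exceeded every DMSO library by over 40 FPKM (log2 fold change 0.51, SE 0.07, adjusted p = 0.00510). Its neighbour on the same chromosome, SLC38A1 (ENSG00000111371, 46183063 to 46270017), had 82.2 and 76.5 FPKM with IKE, against 60.6 and 58.9 FPKM with DMSO (log2 fold change 0.40, SE 0.08, adjusted p = 0.0419). SLC38A2 was no longer called when replicate 2 of the CFPAC-1 DMSO or IKE libraries was left out (adjusted p of 0.0635 and 0.0762). The same held for SLC38A1 and each of the 4 CFPAC-1 libraries, each PANC-1 DMSO library and replicates 1 and 3 of PANC-1 with IKE (adjusted p from 0.0620 to 0.241), and for median-ratio scaling, rescaling of totals without RPS29 and PTPRD, and no low-value filter (adjusted p from 0.0507 to 0.0647).

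Of the cationic carriers, SLC7A1 (ENSG00000139514, chromosome 13, 29509410 to 29595688) had 21.3 and 22.0 FPKM in CFPAC-1 with IKE, against 10.7 and 11 FPKM with DMSO. Its level was thus close to double in each IKE library (ratio of group means 2.00; log2 fold change 0.93, SE 0.09, adjusted p = 3.48e-04). SLC7A2 (ENSG00000003989, chromosome 8, 17497088 to 17570573) had 3.15 and 2.91 FPKM with IKE, against 2.48 and 2.74 FPKM with DMSO, and was not called (0.16, 95% interval -0.05 to 0.37, adjusted p = 0.523).

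The glycine carrier SLC6A9 (ENSG00000196517, chromosome 1, 43991500 to 44031467) had 3.58 and 3.45 FPKM in CFPAC-1 with IKE, against 1.01 and 1.2 FPKM with DMSO. Its mean FPKM with IKE was 3.18 times that with DMSO, from 2.93 to 3.48 times when a library of the line was left out, and its log2 fold change was 1.10 (SE 0.11, adjusted p = 3.39e-04). It shares exonic sequence with CCDC24 on the other strand. SLC43A1 (ENSG00000149150, chromosome 11, 57484534 to 57515786) had 1.18 and 1.57 FPKM with IKE, against 0.79 and 0.68 FPKM with DMSO. It reached the low-value filter through these IKE libraries alone and was not called (0.45, 95% interval 0.12 to 0.78, adjusted p = 0.206).

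The glutamate carriers gave no call in CFPAC-1. SLC1A1 (ENSG00000106688, chromosome 9, 4490444 to 4587469) had 30.6 and 28.7 FPKM with IKE, against 28.1 and 27.4 FPKM with DMSO (0.09, 95% interval -0.13 to 0.31, adjusted p = 0.764). SLC1A3 (ENSG00000079215, chromosome 5, 36606355 to 36688334) was listed at 0.03 and 0 FPKM with IKE and at 0 in both DMSO libraries, so this line gives no measure of it.

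In PANC-1 cells that survived 1 µM IKE, 4 of the 10 genes rose: SLC1A4, SLC6A9, SLC1A5 and SLC7A1, each of which rose in CFPAC-1 too. None fell and 6 were not called, where 1.21% of all genes tested rose and 1.17% fell (2.38% called in all). The median log2 fold change of the 10 was 0.15, against -0.01 for all genes tested. ATF4 mRNA was 116 ± 7.51 FPKM with IKE (SD, n = 4) and 99.2 ± 0.665 FPKM with DMSO (SD, n = 2) and was not called (0.22, adjusted p = 0.0951, limma), while ASNS was called (1.39, adjusted p = 6.64e-05).

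SLC1A4 led in PANC-1, with 8.86, 10.3, 9.21 and 8.74 FPKM in the IKE libraries, against 3.53 and 4.29 FPKM with DMSO. The lowest IKE library held more than double the FPKM of the highest DMSO library (log2 fold change 1.07, SE 0.11, adjusted p = 9.56e-04). SLC6A9 had 6.81, 6.09, 6.77 and 5.69 FPKM with IKE, against 3.20 and 3.18 FPKM with DMSO, again with no overlap (0.81, SE 0.10, adjusted p = 0.00199). These calls held in every fit that left out a library.

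SLC1A5 had 85.3, 85.1, 67.5 and 75.6 FPKM in PANC-1 with IKE, against 55.0 and 56.4 FPKM with DMSO. All 4 IKE libraries were above both controls, with replicates 3 and 4 nearer to them (log2 fold change 0.48, SE 0.09, adjusted p = 0.0182). SLC7A1 had 30.8, 31.4, 26.0 and 28.5 FPKM with IKE, against 22.5 and 20.6 FPKM with DMSO, in the same order of libraries at the low end (0.42, SE 0.08, adjusted p = 0.0244). SLC1A5 was no longer called when either PANC-1 DMSO library was left out (adjusted p of 0.176 without replicate 1 and 0.104 without replicate 2), nor SLC7A1 when either of these, or replicate 1 or 4 of the PANC-1 IKE libraries, was left out (adjusted p from 0.0509 to 0.177). SLC7A1 was also not called in a fit of PANC-1 alone (adjusted p = 0.0520) or with IKE replicates 3 and 4 alone (adjusted p = 0.0567). PANC-1 IKE replicate 3, the lowest of the 4 for both genes, is the library with the largest mitochondrial share, and the part of that share in these values was not tested.

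SLC38A1 had 115, 101, 112 and 122 FPKM in PANC-1 with IKE, against 92.0 and 88.6 FPKM with DMSO. The groups did not overlap, yet the adjusted p of 0.0511 missed the threshold (0.31, SE 0.07), and without PANC-1 IKE replicate 2, its lowest IKE library, it passed (adjusted p = 0.0102), as it did with a filter of 5 FPKM and with IKE replicates 3 and 4 alone (adjusted p of 0.0385 and 0.0235). SLC38A2 had 198, 179, 195 and 200 FPKM with IKE, against 206 and 184 FPKM with DMSO. Its groups overlapped, with a log2 fold change of -0.01 and a 95% interval of -0.15 to 0.13 (adjusted p = 0.953).

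The other 4 genes were low in PANC-1. SLC7A2 had 0.37, 0.36, 0.36 and 0.37 FPKM with IKE, against 0.47 and 0.40 FPKM with DMSO (-0.07, adjusted p = 0.717). SLC43A1 ran from 0.31 to 0.82 FPKM with IKE, against 0.72 and 0.64 FPKM with DMSO (-0.08, adjusted p = 0.821). SLC1A1 ran from 0.04 to 0.09 FPKM with IKE, against 0.13 and 0.01 FPKM with DMSO, levels at which no change can be read. SLC1A3 had 1.00, 2.11, 0.59 and 0.47 FPKM with IKE, against 1.45 and 1.29 FPKM with DMSO, so that its IKE libraries lay on both sides of the controls (-0.28, 95% interval -0.79 to 0.23, adjusted p = 0.590). Replicates 3 and 4 alone gave a fall of SLC1A3 (-0.63, adjusted p = 0.0195) and replicates 1 and 2 alone a value of 0.07 (adjusted p = 0.887).

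**Figure D3:**
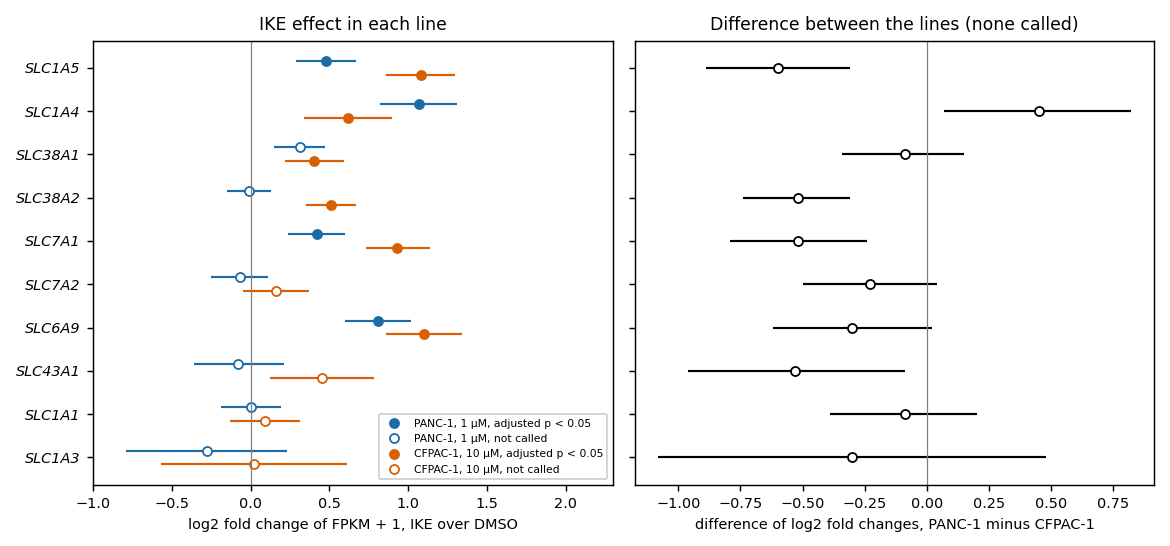
Left, log2 fold changes of FPKM + 1 (horizontal axis) for IKE over DMSO in PANC-1 and CFPAC-1, with 95% intervals from limma; filled points passed adjusted p below 0.05. Right, the PANC-1 change minus the CFPAC-1 change with its 95% interval. The intervals of SLC1A5, SLC38A2, SLC7A1 and SLC43A1 lie below 0 and that of SLC1A4 above it, but no gene passed after adjustment. SLC43A1 reached the low-value filter through its CFPAC-1 IKE libraries alone.

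Whether IKE changed the carriers differently in the lines was tested as a difference of the log2 fold changes, PANC-1 minus CFPAC-1. The lines also differed in dose, so line and dose cannot be told apart. With limma, 0 of the 10 genes were called in either direction, and 0.336% of all genes tested were. At an unadjusted p below 0.05, 4 of the 10 were lower and 1 was higher, where 6.52% of all genes tested were lower and 5.83% higher. SLC43A1 is among the 4, and it reached the low-value filter through its CFPAC-1 IKE libraries alone, the group where it was highest. Its difference is therefore described without a test, though the count includes it. SLC38A2 came nearest, at -0.52 (95% interval -0.74 to -0.31, adjusted p = 0.0561), and it passed with quantile normalization, without replicate 2 of PANC-1 with IKE and with a filter of 5 FPKM (adjusted p from 0.0387 to 0.0419). SLC1A5 differed by -0.60 (95% interval -0.89 to -0.31, adjusted p = 0.0979; -0.73 and adjusted p = 0.0183 with PANC-1 IKE replicates 3 and 4 alone) and SLC7A1 by -0.52 (95% interval -0.79 to -0.24, adjusted p = 0.135). SLC1A4 pointed the other way at 0.45 (95% interval 0.07 to 0.82, adjusted p = 0.320), a direction that rests on the scale: with a pseudocount of 0.1 the difference was -0.25. Its mean FPKM was 2.37 times the DMSO level in PANC-1 (2.16 to 2.63 times when a library was left out) and 3.17 times in CFPAC-1, which became 2.29 times without DMSO replicate 1 and 5.15 times without DMSO replicate 2, so the ratios of the lines cannot be put in order. For SLC6A9 (-0.30, 95% interval -0.62 to 0.02) and SLC38A1 (-0.09, 95% interval -0.34 to 0.15), the intervals included 0. ATF4 differed by -1.08 (adjusted p = 0.00146) and ASNS by -1.11 (adjusted p = 0.00820).

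Without drug, the carriers called between the lines were about as many as for any genes. Of the 10 genes, 6 were higher in PANC-1 than in CFPAC-1, 2 were lower and 2 were not called, where 43.4% of all genes tested were higher and 35.2% lower (78.7% called in all). The genes of glutamate uptake were furthest apart in level. SLC1A1 had 0.13 and 0.01 FPKM in PANC-1, against 28.1 and 27.4 FPKM in CFPAC-1 (log2 difference -4.75). SLC1A3 had 1.45 and 1.29 FPKM in PANC-1, while it was listed at 0 in CFPAC-1. SLC7A2 stood at 0.435 FPKM in PANC-1 and 2.61 FPKM in CFPAC-1 in the mean (log2 difference -1.33). SLC1A1, SLC7A2 and SLC1A3 each reached the low-value filter through the libraries of a single line. SLC1A4 reached 1 FPKM in 6 PANC-1 libraries and 1 CFPAC-1 library, where 2 were needed, so it passed through PANC-1. The filter let these genes in through the line where they were high. They are therefore described without a test, though the counts above include them.

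Most of the carriers that IKE raised were higher in untreated PANC-1 than in untreated CFPAC-1, where 43.4% of all genes tested were higher. A link between the rise with IKE and the level without drug was not tested. Mean FPKM of SLC1A4 was 3.91 in PANC-1 and 0.325 in CFPAC-1 with DMSO (log2 difference 1.89, described without a test). That of SLC6A9 was 3.19 in PANC-1 and 1.10 in CFPAC-1 (0.99, adjusted p = 5.66e-06). SLC7A1 (0.93, adjusted p = 2.79e-06), SLC38A2 (0.71, adjusted p = 3.22e-06) and SLC38A1 (0.59, adjusted p = 4.80e-05) were higher in PANC-1 too. SLC1A5 stood at 55.7 ± 0.997 FPKM in PANC-1 and 51.5 ± 0.686 FPKM in CFPAC-1 (SD, n = 2 each; 0.11, adjusted p = 0.320), and SLC43A1 at 0.680 and 0.735 FPKM in the mean (-0.05, adjusted p = 0.785). The median gene had a log2 difference of 0.12 between the lines, which became -0.01 with median-ratio scaling, where SLC1A5 had -0.02. Side by side and untested, SLC7A1 had a mean of 21.7 FPKM in CFPAC-1 with IKE and 21.6 FPKM in PANC-1 with DMSO, while SLC1A4 had 1.03 FPKM in CFPAC-1 with IKE and 3.91 FPKM in PANC-1 with DMSO.

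Ranked by mean FPKM, SLC38A2 was first in all 4 groups. SLC1A5 came next in CFPAC-1 with IKE, at 110 FPKM, ahead of SLC38A1 at 79.4 FPKM, whereas SLC38A1 came before SLC1A5 in CFPAC-1 with DMSO and in both PANC-1 groups. After them stood SLC1A1 and then SLC7A1 in both CFPAC-1 groups, and SLC7A1, SLC1A4 and then SLC6A9 in both PANC-1 groups. The lower places went in order to SLC6A9, SLC7A2, SLC43A1, SLC1A4 and SLC1A3 in CFPAC-1 with IKE, to the same genes with SLC7A2 before SLC6A9 in CFPAC-1 with DMSO, and to SLC1A3, SLC43A1, SLC7A2 and SLC1A1 in both PANC-1 groups. Neighbours in these orders did not overlap in range, other than SLC1A3 with SLC43A1 and SLC43A1 with SLC7A2 in PANC-1 with IKE. The 10 genes together summed to 420 and 417 FPKM in CFPAC-1 with IKE, against 275 and 270 FPKM with DMSO, and to 446, 416, 418 and 442 FPKM in PANC-1 with IKE, against 385 and 359 FPKM with DMSO. SLC1A5 made up 26.4% and 26.3% of that sum in CFPAC-1 with IKE, against 18.9% in both DMSO libraries, and 16.1% to 20.4% in PANC-1 with IKE, against 14.3% and 15.7% with DMSO. The share of SLC38A2 was lower with IKE in every library, at 39.6% and 41.0% in CFPAC-1, against 43.4% and 43.3% with DMSO, and at 43.1% to 46.6% in PANC-1, against 53.5% and 51.2% with DMSO.

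**Figure D4:**
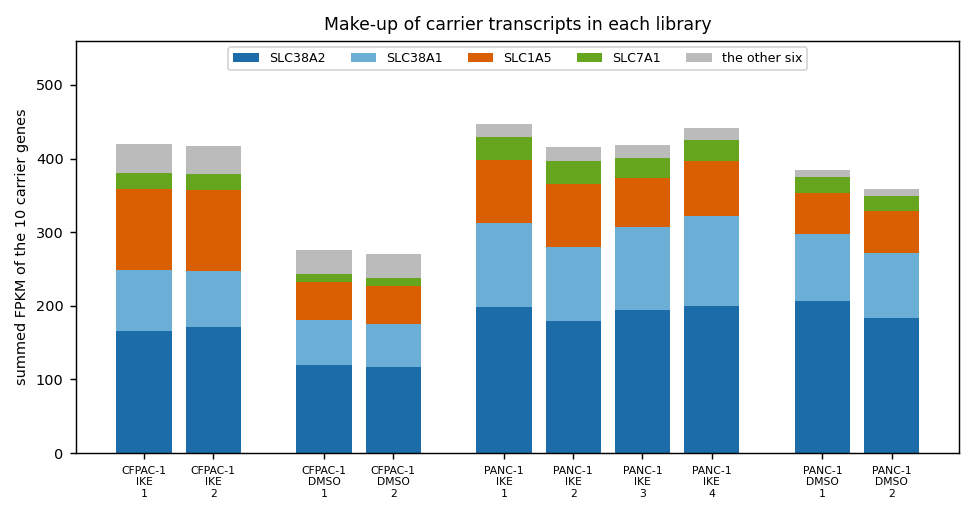
Summed FPKM of the 10 carrier genes in each library (vertical axis, from 0), split into SLC38A2, SLC38A1, SLC1A5, SLC7A1 and the other six. The bars reach 420 and 417 FPKM in CFPAC-1 with IKE, against 275 and 270 FPKM with DMSO, and SLC38A2 is the largest piece of each.

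Ratios between relatives showed how uneven the pairs were. SLC7A1 exceeded SLC7A2 by 6.75 and 7.57 times in CFPAC-1 with IKE, against 4.32 and 4.01 times with DMSO, and by 72.2 to 87.1 times in PANC-1 with IKE, against 47.9 and 51.5 times with DMSO. SLC1A5 exceeded SLC1A4 by 7.32 to 9.62 times in PANC-1 with IKE, against 15.6 and 13.2 times with DMSO, and by 113 and 101 times in CFPAC-1 with IKE, against 260 and 113 times with DMSO, where SLC1A4 was under 0.5 FPKM. SLC38A2 exceeded SLC38A1 by 1.64 to 1.78 times in PANC-1 with IKE, against 2.24 and 2.07 times with DMSO, and by 2.02 and 2.23 times in CFPAC-1 with IKE, against 1.97 and 1.98 times with DMSO.

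A list of 29 further carriers was taken from the SLC1, SLC7, SLC38, SLC6, SLC43 and SLC36 families. It does not hold these families whole. From SLC7 it holds only SLC7A3, SLC7A4 and SLC7A14, each below 1 FPKM in every library and not tested. Other SLC7 genes were left out of it. SLC7A5, which rose with IKE in both lines, was placed among the sensing genes described further on. No SLC1 or SLC7 gene was thus among those tested, and the counts do not speak for the rest of these families. Of the 29 genes, 14 were tested. With limma, 0 rose and 0 fell with IKE in PANC-1 (1 up and 1 down at an unadjusted p), and 0 rose and 0 fell in CFPAC-1 (0 up and 1 down at an unadjusted p), with median log2 fold changes of -0.03 and 0.00. Over all genes tested, 1.21% rose and 1.17% fell in PANC-1, and 0.864% rose and 0.459% fell in CFPAC-1. Counts of 0 among 14 genes are near those shares. At an unadjusted p, 8.37% of all genes were up and 9.25% down in PANC-1, and 6.5% and 7.1% in CFPAC-1. Between the lines with DMSO, 6 were higher in PANC-1 and 5 lower, or 78.6% called, close to the 78.7% over all genes. SLC6A14, a broad carrier of neutral and cationic amino acids, stood at 0.01 FPKM in PANC-1 and 9.34 FPKM in CFPAC-1, and SLC6A20 at 0.05 FPKM in PANC-1 and 2.00 FPKM in CFPAC-1. SLC38A3, a glutamine carrier of the liver, stood at 3.49 FPKM in PANC-1 and 0.01 FPKM in CFPAC-1, and SLC6A17 at 2.52 FPKM in PANC-1 and 0.01 FPKM in CFPAC-1. These 4 genes reached the low-value filter through a single line and are described without a test. SLC38A4 and SLC6A15 also passed it through PANC-1 alone, and the counts above include all of these genes. SLC36A4 was higher in PANC-1 (1.73, adjusted p = 6.20e-08) and SLC38A9 lower (-0.78, adjusted p = 6.97e-05). SLC43A3 was lower in PANC-1 as well (-0.91, adjusted p = 0.00598), but its call was lost without CFPAC-1 DMSO replicate 1 (-0.50, adjusted p = 0.0803) and without PANC-1 DMSO replicate 2 (adjusted p = 0.0627). SLC38A6 (-0.59, adjusted p = 0.0361) was not called with no low-value filter or when CFPAC-1 DMSO replicate 1 or either PANC-1 DMSO library was left out (adjusted p from 0.0514 to 0.189).

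**Figure D5:**
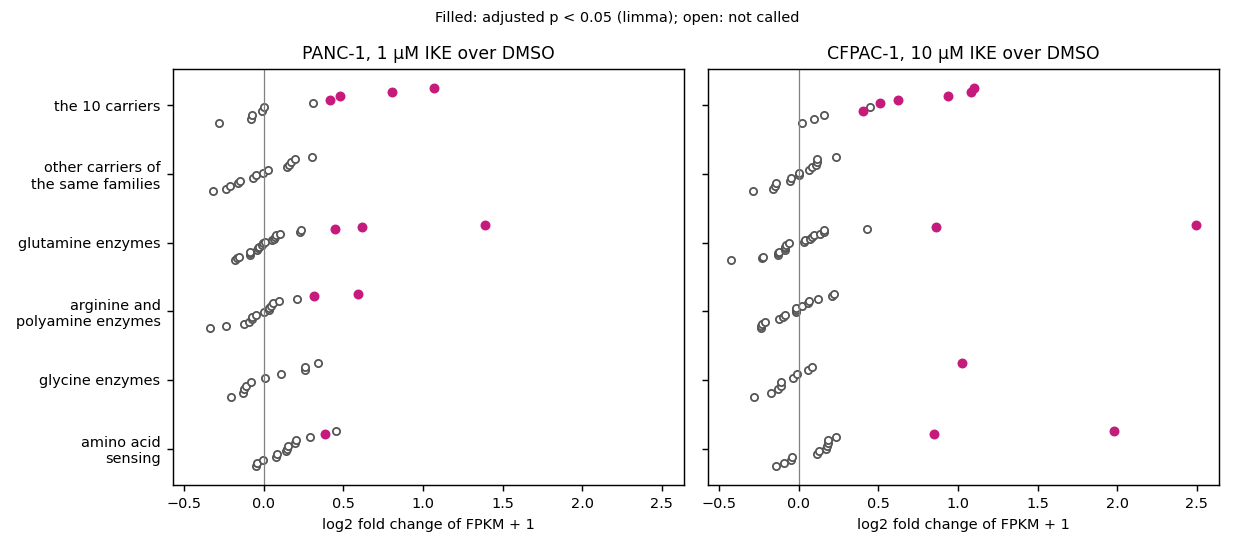
Log2 fold changes of FPKM + 1 (horizontal axis) for IKE over DMSO in PANC-1 and CFPAC-1, with one point per tested gene and one row per gene list; filled points passed adjusted p below 0.05. The carriers hold 4 filled points in PANC-1 and 6 in CFPAC-1, all to the right. The 14 other carriers tested, with no SLC1 or SLC7 gene among them, hold 0, near the share over all genes. SLC7A5, a carrier plotted with the sensing genes, is filled in both lines.

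Of 22 tested genes that use or make glutamine or glutamate, 3 rose with IKE in PANC-1 (13.6%, against 1.21% of all genes tested) and 2 in CFPAC-1 (9.09%, against 0.864% of all genes tested), and 0 fell in either (0 down in PANC-1 and 2 down in CFPAC-1 at an unadjusted p). ASNS, which spends glutamine to make asparagine, and GPT2, the mitochondrial alanine aminotransferase gene (0.62, adjusted p = 0.00508 in PANC-1, and 0.86, adjusted p = 8.75e-04 in CFPAC-1), rose in both, and GOT1, of aspartate transamination, rose in PANC-1 (0.45, adjusted p = 0.00738). The PANC-1 call of GPT2 did not survive leaving out DMSO replicate 2 (adjusted p = 0.0662), nor that of GOT1 leaving out DMSO replicate 1 (adjusted p = 0.137). GOT1 also differed between the lines (0.58, adjusted p = 0.0434), a call that was lost in each fit that left out a library except the fit omitting replicate 2 of PANC-1 with IKE (adjusted p from 0.0501 to 0.206).

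Of 16 tested genes of arginine and polyamine metabolism, 2 rose in PANC-1 (12.5%, against 1.21% of all genes tested) and 0 fell (2 down at an unadjusted p). In CFPAC-1 limma called 0 (1 up and 1 down at an unadjusted p), where 1.32% of all genes tested were called. The risen genes were ASS1, of arginine synthesis (0.59, adjusted p = 0.0157), and ODC1, the first enzyme of polyamine synthesis (0.32, adjusted p = 0.0171). ASS1 was not called when replicate 1 of PANC-1 with DMSO was left out (adjusted p = 0.207), and ODC1 was not called when either DMSO library was (adjusted p from 0.119 to 0.168). Of 10 tested genes of glycine metabolism, 1 rose in CFPAC-1 (10%, against 0.864% of all genes tested). It was SHMT2 (1.02, adjusted p = 3.82e-04), which makes glycine from serine in mitochondria. In PANC-1 limma called 0 (2 up and 0 down at an unadjusted p), where 2.38% of all genes tested were called. Of 13 tested genes of amino acid sensing, the leucine carrier gene SLC7A5 rose in both lines (0.38, adjusted p = 0.0339 in PANC-1, and 1.98, adjusted p = 6.60e-07 in CFPAC-1), and SESN2, a leucine-sensing brake on mTORC1, rose in CFPAC-1 (0.85, adjusted p = 0.0105). The risen share of this list was 7.69% in PANC-1, against 1.21% of all genes, and 15.4% in CFPAC-1, against 0.864%. The PANC-1 call of SLC7A5 was lost in 8 of the 10 fits that left out a library, the exceptions being replicates 2 and 3 of PANC-1 with IKE (adjusted p from 0.0507 to 0.193). The call of SESN2 was lost when any CFPAC-1 library was left out (adjusted p from 0.0652 to 0.0980).

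For each carrier whose values spanned at least 1 log2 unit over the 10 libraries, the genes with the most similar pattern were found as those with the smallest mean absolute difference of centred log2(FPKM + 1) values. SLC7A1 was nearest to SESN2 (0.054 log2 units) and to AARS1, the alanyl tRNA synthetase gene (0.131). SLC1A5 was nearest to SLC3A2, the heavy chain shared by several carriers (0.089), and to SHMT2 (0.090). SLC6A9 was nearest to YARS1, the tyrosyl tRNA synthetase gene (0.143), and to SRXN1 (0.146), and SLC1A4 to the malic enzyme gene ME1 (0.195) and to GARS1, the glycyl tRNA synthetase gene (0.196). SLC38A1 was nearest to TXNL1 (0.056) and COX7A2L (0.074). For SLC1A1 (ZNF334, 0.038, and SYT13, 0.054), SLC7A2 (LRAT, 0.041, and HMGCS1, 0.043) and SLC1A3 (MLXIP, 0.129, and PTK7, 0.132), the pattern matched is mainly the difference between the lines. SLC38A2 and SLC43A1 spanned less than 1 log2 unit (0.81 and 0.97) and were not matched.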

How the data were processed

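RNA of 10 libraries was measured in 4 groups given by the labels. Per the labels' protocols, rRNA was removed from Trizol-extracted total RNA before strand-keeping libraries were made. StringTie 1.3.4, HISAT2 2.1.0, Bowtie2 2.2.8, DESeq2, fastp 0.18.0 and the build GRCh38 are named in the submitters' processing notes. What each did, the annotation and whether strand was used in counting are not given there. The authors deposited FPKM values for 20289 genes, and 9 further columns are empty. No counts are among the deposited values, so no count test was run.

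Genes reaching 1 FPKM in 2 or more libraries were taken as log2 of the deposited FPKM plus 1 and fitted in limma 3.58.1 (R 4.3.3). The model held the 4 group means, with a trend in the prior variance, over all 10 libraries (6 residual degrees of freedom, to which the prior added 5.1), and tests were two-sided. The fit was tested on simulated data. Gene positions are from GENCODE 29. The genes, lists, motif and alternatives were chosen with earlier results of these data known. Named are all 10 carriers, ATF4 and ASNS as readouts of amino acid shortage, from each other list up to 3 called genes with the smallest p per comparison and direction, and every one where 5 or fewer were called, and the 2 genes nearest in pattern to each carrier. The alternatives were a pseudocount of 0.1, other low-value filters, 3 other scalings, a fold threshold, a replicate block, fits within a line or with DMSO alone, PANC-1 IKE replicates 1 and 2 or 3 and 4 alone, and each library left out.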

Additional observations from a re-analysis of the deposited data

Results flagged for a closer look

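Several genes differed between the lines in their change with IKE, given as PANC-1 minus CFPAC-1 on the log2 scale with limma. ATF4 differed by -1.08 (adjusted p = 0.00146), and ASNS by -1.11 (adjusted p = 0.00820), a call that did not survive leaving out replicate 2 of either CFPAC-1 group (adjusted p from 0.0620 to 0.0673). SLC7A5 differed by -1.59 (adjusted p = 6.61e-04) and GOT1 by 0.58 (adjusted p = 0.0434). SLC7A2 stood out because its IKE libraries were all below DMSO in PANC-1 and all above DMSO in CFPAC-1, but the difference of -0.23 was not called (adjusted p = 0.481), and the gene was under 0.5 FPKM in PANC-1. No carrier had a library that stood apart from the other 3 of the PANC-1 IKE group by Dixon's test.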

How the results depend on the processing

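The 10 carriers in 4 comparisons gave 764 values under alternatives, of which 704 kept their direction and side of the threshold, 35 lost a call, 8 gained it and 17 changed sign. Carriers risen in CFPAC-1 numbered 6, with 3 to 6 when a library was left out and 2 at a log2 fold change of at least 1. Risen carriers in PANC-1 numbered 4, with 2 to 5 when a library was left out and 1 at a log2 fold change of at least 1. With PANC-1 IKE replicates 3 and 4 alone, 1 fell there and 1 was lower in the difference between the lines. That count, 0 in the fit reported, was also 1 with quantile normalization and with a filter of 5 FPKM, and 0 to 1 when a library was left out. Between the lines with DMSO, 6 carriers higher became 2 at the fold threshold, and 2 lower became 1 with a filter of 5 FPKM, which leaves 7 of the 10 genes tested. Leaving out a library of a group of 2 leaves 1, which is then assumed to vary like the other groups.

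In PANC-1, SLC1A1 (-0.00 in the fit reported) became 0.0648 with a pseudocount of 0.1, 0.0130 with quantile normalization and 0.0022 with IKE replicates 3 and 4 alone, and ran from -0.0823 to 0.0796 when a library was left out. SLC38A2 (-0.01) became 0.0196 with IKE replicates 3 and 4 alone and ran from -0.0945 to 0.0697 when a library was left out, and SLC43A1 (-0.08) from -0.144 to 0.0146. SLC1A3 (-0.28) became 0.0744 with IKE replicates 1 and 2 alone and with the replicate block, and its difference between the lines (-0.30) became 0.0531 with each. In both fits its PANC-1 change rests on IKE replicates 1 and 2. The difference of SLC1A4 became -0.25 with a pseudocount of 0.1. Between the lines with DMSO, SLC1A5 became -0.0185 with median-ratio scaling, and SLC43A1 0.40 (adjusted p = 0.0251) with quantile normalization. The cause was not tested.

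The labels do not say that replicate numbers pair the samples. The replicate 1 minus replicate 2 differences of IKE and DMSO libraries correlated at 0.05 over genes in PANC-1 and at -0.0015 in CFPAC-1. In the replicate block, replicates 3 and 4 of PANC-1 with IKE have no DMSO partner and are fitted exactly. The PANC-1 change in that fit rests on replicates 1 and 2, with fewer residual degrees of freedom. With the replicate block, 3 carriers rose in PANC-1 and 4 in CFPAC-1, and the calls not made were those of SLC7A1 in PANC-1 (adjusted p = 0.0719) and of SLC1A4 and SLC38A1 in CFPAC-1 (adjusted p of 0.104 and 0.0686). Among the other genes it took the calls of GPT2, ASS1, ODC1 and SLC7A5 in PANC-1 (adjusted p from 0.0707 to 0.115), of the differences of ASNS and GOT1 (adjusted p of 0.135 and 0.160), and of SLC38A6, GAMT and GATM between the lines (adjusted p from 0.0602 to 0.198). Calls over all genes with the block were 63 in place of 311 in PANC-1 and 79 in place of 173 in CFPAC-1. These lower counts come with fewer degrees of freedom and, in PANC-1, fewer libraries, and the part of pairing in them was not tested. Calls over all genes ran from 42 to 504 in PANC-1, from 79 to 262 in CFPAC-1 and from 2 to 69 for their difference. Depth is unknown, which leaves carriers under about 1 FPKM without a counting error.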

Other observations

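Between the untreated lines, 70% to 93.8% of the tested genes of each list below were called, where 78.7% of all genes tested were. With DMSO, 11 of 22 tested genes of glutamine and glutamate use were higher in PANC-1 and 7 lower, or 81.8% called, where 78.7% of all genes tested were (43.4% higher and 35.2% lower). GLS2 and GLUD2 reached the low-value filter through CFPAC-1 alone, and GFPT2 and SLC25A18 through PANC-1 alone. The tested genes include them, so the counts rest in part on genes let in through a single line. CTPS1, which spends glutamine to make CTP, stood at 94.2 ± 3.44 FPKM in PANC-1 and 12.6 ± 1.64 FPKM in CFPAC-1 (SD, n = 2 each; log2 difference 2.81, adjusted p = 3.88e-10, limma), whereas its relative CTPS2 was lower in PANC-1 (-1.77, adjusted p = 2.64e-08). GLUL, which makes glutamine from glutamate, stood at 28.2 ± 1.03 FPKM in PANC-1 and 118 ± 3.51 FPKM in CFPAC-1 (-2.02, adjusted p = 1.13e-09). SLC25A22, a mitochondrial glutamate carrier gene (2.39), and ASNS (2.05) were higher in PANC-1, and GFPT1, the first enzyme of hexosamine synthesis (-0.68), was lower.

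Of 16 tested genes of arginine and polyamine metabolism, 9 were higher in PANC-1 with DMSO and 6 lower (93.8% called, against 78.7% of all genes tested). The spermidine synthase gene SRM stood at 99.3 ± 2.69 FPKM in PANC-1 and 14.3 ± 0.276 FPKM in CFPAC-1 (SD, n = 2 each; 2.72, adjusted p = 8.67e-12, limma), and ODC1 (1.93) and OAT (1.55) were higher too. SAT1, which acetylates polyamines for export, stood at 55.5 ± 4.04 FPKM in PANC-1 and 207 ± 13.9 FPKM in CFPAC-1 (-1.88, adjusted p = 1.20e-07), and ARG2 (-1.10) and the mitochondrial carrier gene SLC25A29 (-1.05) were lower too. Of 10 tested glycine genes (70.0% called), ALAS1 (1.33), DLD (0.50) and GAMT (0.47) were higher in PANC-1, and SHMT1 (-1.05), AMT (-1.02), GCSH (-0.51) and GATM (-0.42) lower. AMT reached the low-value filter through CFPAC-1 alone. So did ARG2, which was at 1 FPKM in 4 CFPAC-1 libraries and 1 PANC-1 library, where 2 were needed. NOS3, of the arginine list, reached the filter through PANC-1 alone, and the counts above include these genes. GAMT was not called with median-ratio scaling or without CFPAC-1 DMSO replicate 2 or PANC-1 DMSO replicate 1 (adjusted p from 0.0556 to 0.0966), and GATM was not called with quantile normalization or when any DMSO library was left out (adjusted p from 0.0535 to 0.155). Of 13 tested sensing genes (76.9% called) 8 were higher, among them SLC7A5 (2.78), MTOR (0.94) and RRAGC (1.06), and SLC38A9 (-0.78) and RRAGA (-0.60) were lower.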
